A study of Mus musculus with 4 samples.

Results

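The 49 genes described here code for the proteasome and the factors that build, cap or inhibit it. They are the gene spots of the array whose gene name begins with Psma, Psmb, Psmc, Psmd, Psme, Psmf or Psmg followed by a number, out of 28307 gene names on the array. They carry 77 of the 41174 gene probes, 21 of them have several probes, and the probe with the highest mean level over the 4 arrays stands for its gene. The members were 7 alpha subunits and 7 constitutive beta subunits of the 20S core, 3 catalytic subunits of the immunoproteasome, 2 tissue-restricted 20S subunits, 6 ATPases and 11 other subunits of the 19S cap, 3 assembly chaperones of the 19S cap, 4 assembly chaperones of the 20S core, the 2 subunits of the PA28 activator and 3 other activators or inhibitors. The last member, Psmc3ip, matches the name rule but is a meiotic recombination factor and no proteasome subunit.

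The proteasome is the cell's main protease for ubiquitin-tagged proteins. Its 20S core is a barrel of alpha and beta rings with the proteolytic sites in the beta rings, and the 19S cap recognises, unfolds and threads in the substrate. Interferon induces 3 catalytic beta subunits that take the places of constitutive ones in newly built cores, Psmb8 for Psmb5, Psmb9 for Psmb6 and Psmb10 for Psmb7, and also the activator PA28, made of Psme1 and Psme2. Immunoproteasomes are abundant in lymphoid cells and cut peptides suited to MHC class I molecules.

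RNA came from B220 B cells taken fresh from naive mice. B220 is the form of the CD45 phosphatase found on most mouse B lineage cells. The 4 Agilent 1-colour arrays held bone marrow or spleen cells of mice labelled Mef2c KO (KO) or of C57BL/6 mice (WT), with 1 array for each of the 4 combinations. Mef2c is a transcription factor of B cells. The labels do not give how or in which cells Mef2c was deleted, the age of the mice or how many were used, so no difference between 2 arrays has a replicate check. In bulk samples such as these, fewer cells of a type and less RNA per cell cannot be told apart.

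Both marrow arrays lay on slide 1 and both spleen arrays on slide 2, so tissue and slide cannot be told apart. Each slide had KO at its position 1 and WT at its position 2, so neither can position and genotype. The brightness of the spleen KO array stood apart: the 75th percentile of its gene signals was 520, against 961 to 1008 on the other arrays. Levels are log2 signal relative to that percentile, which adds 0.90 on the log2 scale to every spleen KO minus WT difference. The brightest Mef2c probe gave signals of 4218 on WT marrow, 5511 on KO marrow, 8534 on WT spleen and 11838 on KO spleen. It was thus not lower on the libraries labelled KO. The part of the gene that was deleted is not given in the sources used here, so a probe outside it checks nothing, and KO below means the library labelled so. All 8 B cell markers were well above background on all 4 arrays, as were 48 of the 49 members, the exception being Psmb11 with 2 arrays. Summed scaled levels of 11 neutrophil markers were 440 on WT marrow, 1431 on KO marrow, 11.2 on WT spleen and 146 on KO spleen, with 10 of the 11 well above background on each spleen array. The 9 macrophage markers summed to 17.0 on both marrow arrays, 120 on spleen KO and 45.1 on spleen WT, with all 9 well above background on every array. The 8 B cell markers summed to 373 on WT marrow, 275 on KO marrow, 605 on WT spleen and 881 on KO spleen, a sum led by the bright Cd79b, Ms4a1 and Ptprc, the last of which other white cells also carry. By gene, 5 of the 8 were lower on spleen KO than on spleen WT, with a median of -0.77. Of these 5, 4 were lower by at least 2-fold: Cd79a (-2.46), Blk (-2.31), Cd22 (-2.24) and Pax5 (-1.26). In the marrow, KO minus WT lay below 0 for 7 of the 8 markers and above 0 for Ptprc alone (0.32). The marrow median was -1.02. The same 4 genes fell at least 2-fold there: Cd22 (-2.43), Cd79a (-1.87), Blk (-1.63) and Pax5 (-1.10). The sums of erythroid (6 genes) and dendritic cell (6 genes) markers were 4.81 to 27.1 and 8.60 to 24.1, highest on KO spleen. The dendritic sum was led by the bright Bst2. By gene, 3 of the 6 dendritic markers were higher and 3 lower on spleen KO than on spleen WT, with a median of -0.21. The sums of T cell (7 genes) and plasma cell (6 genes) markers were 4.72 to 9.12 and 47.1 to 87.5. These other-cell signals moved with genotype and tissue, and their part in the results was not tested.

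The first comparison set WT spleen against WT marrow cells. All 5 interferon-induced subunits were higher on the WT spleen array, while 40 of the other 44 genes were lower there, 3 were higher and Psmb11 had only a bound. The 5 differences were 0.19 to 0.62 on the log2 scale with a median of 0.44, and the other members had a median of -0.68. Over all genes measured in this comparison the median was -0.07 without lower bounds and -0.09 with bounds included, and 11642 of 21447 lay below 0.

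Psmb9 had signals of 17784 on WT marrow and 27574 on WT spleen, and of 22840 on KO marrow and 36107 on KO spleen. Psmb8 had 31322 on WT marrow, 42906 on WT spleen, 39881 on KO marrow and 36657 on KO spleen. Psmb10 had 45077 on WT marrow, 51859 on WT spleen, 50205 on KO marrow and 49508 on KO spleen. In the WT cells the immunoproteasome catalytic subunits were thus all brighter in spleen, by 0.62 for Psmb9, 0.44 for Psmb8 and 0.19 for Psmb10 after scaling. Psme1, the alpha subunit of PA28, had 26416 on WT marrow, 37447 on WT spleen, 29790 on KO marrow and 39384 on KO spleen. Psme2, its beta subunit, had 56055 on WT marrow, 69765 on WT spleen, 60657 on KO marrow and 75348 on KO spleen. Both were brighter on each spleen array than on the marrow array of the same genotype, by 0.49 and 0.30 after scaling in WT.

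The constitutive partners went the other way in the WT comparison. Psmb6 had signals of 25266 on WT marrow and 11726 on WT spleen, with 33416 on KO marrow and 26112 on KO spleen. Psmb5 had 9306 on WT marrow, 8036 on WT spleen, 11961 on KO marrow and 11424 on KO spleen. Psmb7 had 7825 on WT marrow, 5160 on WT spleen, 7359 on KO marrow and 4058 on KO spleen. After scaling, all 3 were lower on WT spleen, at -1.12 for Psmb6, -0.61 for Psmb7 and -0.23 for Psmb5.

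**Figure D1:**
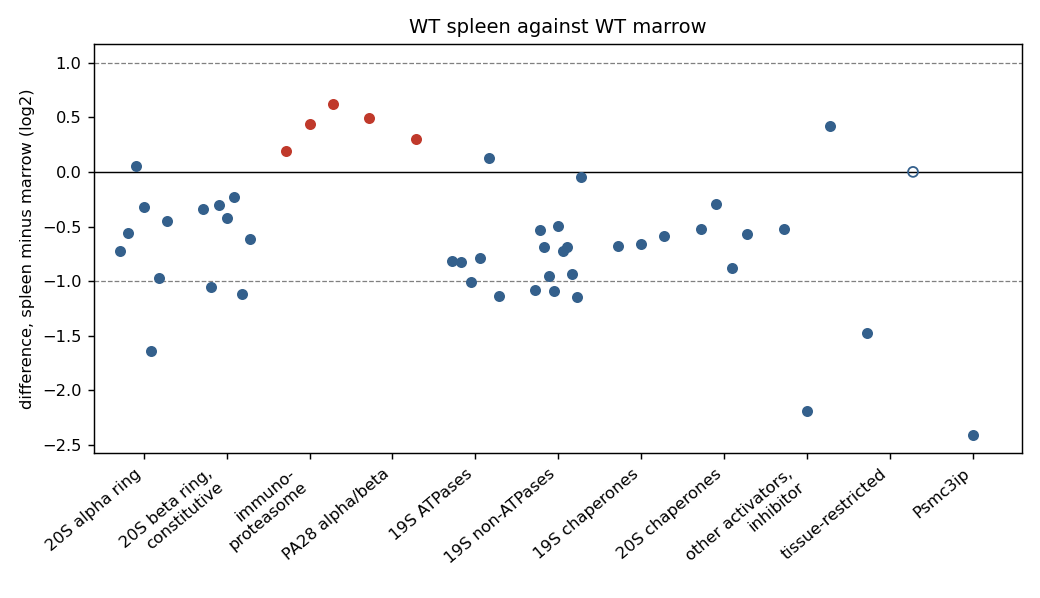
Difference between WT spleen and WT marrow (log2, y axis) for each member, grouped by role, with the 5 interferon-induced subunits in red, dashed lines at 2-fold and an open circle for a lower bound. The red points lie between 0.19 and 0.62, and 40 of the 44 blue points lie below 0.

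A difference of differences within a pair cancels any factor common to an array. From WT marrow to WT spleen, Psmb9 gained 1.74 on the log2 scale on Psmb6 (3.34-fold), Psmb10 gained 0.80 on Psmb7 (1.74-fold) and Psmb8 gained 0.67 on Psmb5 (1.59-fold). Under all settings tried these stayed within 1.70 to 1.75, 0.72 to 0.95 and 0.61 to 0.78. Of these settings only quantile normalization, cyclic loess and normexp could move all 3 pairs, in this or any other comparison. In KO cells the same tissue step gave 1.02 for Psmb9 over Psmb6, 0.84 for Psmb10 over Psmb7 and -0.06 for Psmb8 over Psmb5.

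**Figure D2:**
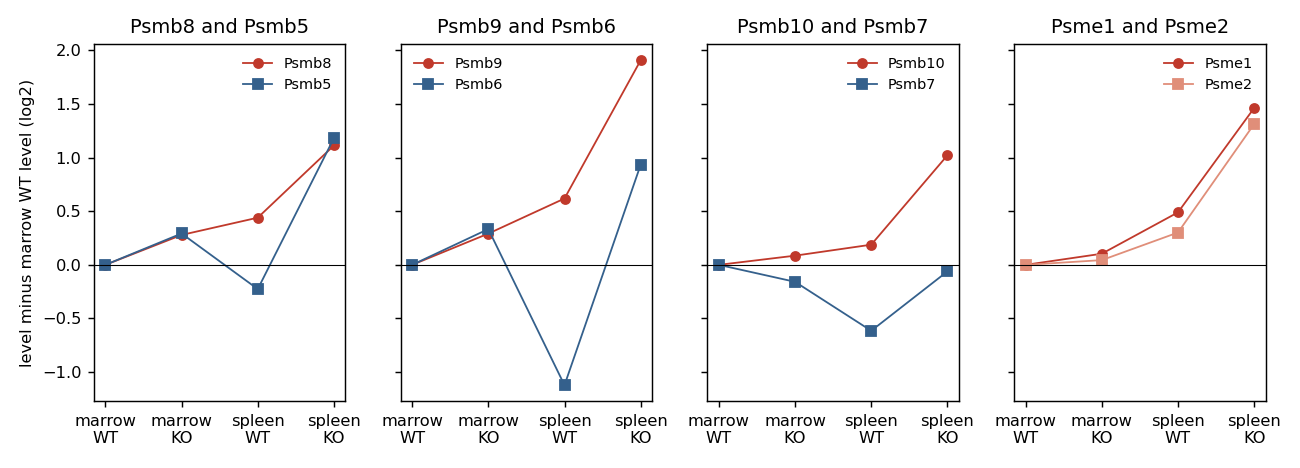
Level on each array relative to marrow WT (log2, y axis) for each interferon-induced subunit with its constitutive partner and for both PA28 subunits, 1 point per array. Psmb9 and Psmb6 lie 1.74 apart on WT spleen, and Psme1 and Psme2 lie close together on every array.

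Because the partners are paralogs, the probes are shown to let a reader see how unlike they are. Each is a 60-base probe in the RNA's sense on mouse build mm9, and capitals mark the bases that differ from the partner's probe where the pair was aligned. Over the aligned bases, 31 of 50 were identical between a Psmb8 probe and the Psmb5 probe (62%), and 27 of 48 between the Psmb9 and Psmb6 probes (56.2%). The Psmb8 probe that was aligned is the dimmer of 2. The brighter probe, used for the values above, is shown in lower case and spans an intron.
Psmb8, aligned probe, chr17:34337771-34337830, plus strand: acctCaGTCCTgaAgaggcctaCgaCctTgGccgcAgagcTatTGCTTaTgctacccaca
Psmb5, chr14:55233161-55233220, minus strand: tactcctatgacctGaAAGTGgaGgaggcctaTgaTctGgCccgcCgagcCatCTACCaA
Psmb9, chr17:34319174-34319233, minus strand: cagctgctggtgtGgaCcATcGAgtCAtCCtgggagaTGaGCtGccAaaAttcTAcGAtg
Psmb6, chr11:70341014-70341073, plus strand: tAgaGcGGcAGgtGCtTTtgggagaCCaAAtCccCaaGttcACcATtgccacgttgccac
Psmb8, used probe, chr17:34337828-34338152, plus strand: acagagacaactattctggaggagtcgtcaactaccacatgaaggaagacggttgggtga
The differing bases are spread along each probe. The aligned Psmb8 probe differed from the used one by less than 0.21 in every comparison of this gene.

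Across all roles, 11 of 49 members (22.4%), none of them interferon-induced, were at least 2-fold lower and 0 were at least 2-fold higher on WT spleen than on WT marrow, where 15.7% of all measured genes were at least 2-fold lower and 15.5% at least 2-fold higher. With median scaling 15 members were lower and 0 higher, beside 20.1% and 12.8% of all genes. When genes were put in 4 equal bins by mean level, 43 of the 49 members fell in the brightest bin. There 986 of 5516 genes lay below the 2-fold limit and 459 above it, 3434 lay below 0, and the median was -0.27. The 6 ATPases that drive unfolding had a median of -0.82, the 11 other 19S subunits -0.73, the 19S assembly chaperones -0.66, the alpha ring -0.56, the 20S assembly chaperones -0.55 and the constitutive beta ring -0.42. All 11 non-ATPase subunits and all 7 constitutive beta subunits were below 0. Psmc5, an ATPase, at 0.13, Psma3, an alpha subunit, at 0.05 and Psmf1, the inhibitor PI31, at 0.42 were the 3 members above 0 outside the interferon-induced group. The lowest were Psmc3ip, with signals of 4048 on WT marrow and 772 on WT spleen (-2.40), and Psme4, the nuclear activator PA200, with 42602 and 9441 (-2.19). The Psme4 value depended on the probe: it was 1.43 for the probe at base 2608 of the transcript and -0.32 by the median over probes.

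The same tissue step in KO cells shares no array with the WT one. On KO spleen against KO marrow, 6 members were at least 2-fold higher and 2 at least 2-fold lower, beside 15.7% and 13.9% of all measured genes, and the median was 0.22. With median scaling 11 were higher and 1 lower, beside 21.2% and 11.4% of all genes. The sign of this median turned with the scaling: it was -0.01 with quantile normalization and -0.11 with cyclic loess. Before any scaling it was -0.75, with 7 of 49 members higher, since scaling adds 0.96 to this comparison. The 5 interferon-induced subunits were at 0.83 to 1.62, with a median 1.27 against 0.19 for the other members. The lower 2 were Psmc3ip at -1.40 and Psmd13, a 19S lid subunit, at -1.17. In both genotypes, under every normalization tried, all 5 interferon-induced subunits lay above 0 in spleen against marrow. In the signals before any scaling, all 5 were higher on spleen in WT and 3 of 5 in KO, where Psmb8 and Psmb10 were lower. Their median exceeded that of the other members by 1.02 to 1.22 in WT and by 0.82 to 1.15 in KO.

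The genotype was compared within each tissue. In the marrow, proteasome genes were nearly level: 35 members lay above 0 and 14 below, with a median KO minus WT difference of 0.11 against -0.06 for all genes. Of all measured genes 44.3% lay above 0, and of the brightest bin 54.5%. Of the 49 members, 2 were at least 2-fold higher on KO and 0 at least 2-fold lower, against 8.35% and 4.9% of all measured genes (10.1% and 3.32% with cyclic loess). Both were dim and belong to other tissues. Psma8, the alpha subunit of the testis proteasome, had signals of 93.1 on WT marrow, 269 on KO marrow, 33.9 on WT spleen and 83.3 on KO spleen. Psmb11, the catalytic subunit of the thymus proteasome, had 16.6, 45.5, 14.6 and 9.87 in the same order. Their marrow differences were 1.46 and 1.38. The next largest was Psmb2, a constitutive beta subunit, at 0.41, and the lowest was Psme3, the nuclear PA28 gamma, at -0.46. The interferon-induced subunits lay at 0.04 to 0.29.

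In the spleen the proteasome genes were higher as a body on the KO array. Of 48 measured members, 25 (52.1%) were at least 2-fold higher and 0 at least 2-fold lower, where 19.8% of all measured genes were higher and 14.4% lower. With median scaling 34 members passed 2-fold upwards and 0 downwards, their median was 1.44, and this stands beside 33.0% and 8.40% of all genes. The median was 1.02, against 0.27 over all genes (0.09 with lower bounds included) and 0.69 in the brightest bin, in which 1947 of 5516 genes passed 2-fold upwards and 349 downwards. Psmd13 at -0.36 was the 1 member below 0, where 53.2% of all measured genes and 76.5% of the brightest bin lay above 0. This excess depended on the scaling: with quantile normalization 8 members were at least 2-fold higher beside 18.0% of all genes, and with cyclic loess 7 beside 16.4%, with medians of 0.34 and 0.25. In the signals before any scaling, 29 of 49 members were brighter on spleen KO than on spleen WT, with a median log2 difference of 0.11. By the median over a gene's probes 18 members were at least 2-fold higher, and Psma4, Psmb3, Psmc3ip, Psmd12 and Psme2 were among those no longer so. On the same arrays the summed neutrophil markers were 13.0-fold, the erythroid markers 3.80-fold and the macrophage markers 2.66-fold higher on KO. Single markers varied: 6 of 10 measured neutrophil markers were at least 2-fold higher, with Csf3r, the receptor for granulocyte growth factor, at 0.27, and 5 of 9 macrophage markers were, with 3 below 0, among them Csf1r at -1.04. Of 5 measured erythroid markers 4 were at least 2-fold higher. Their part in the members' differences was not tested.

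**Figure D3:**
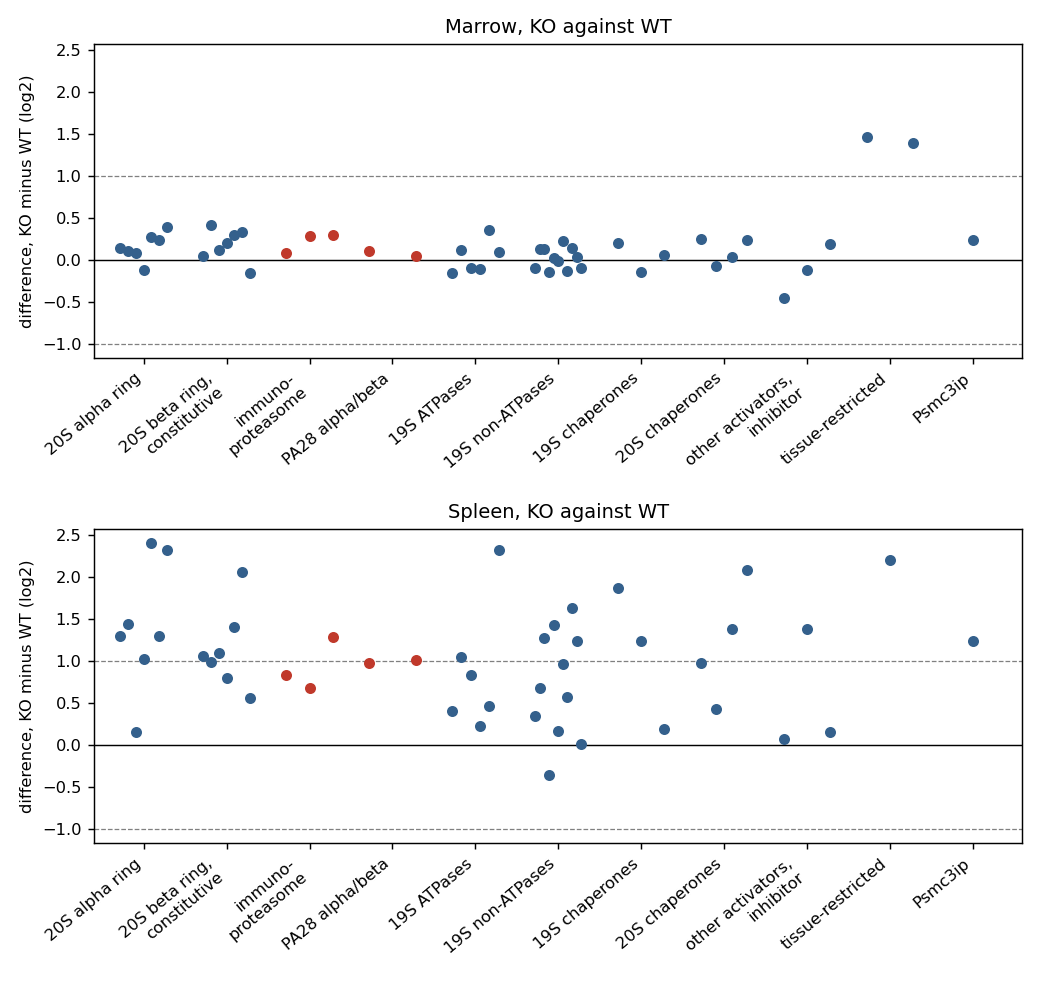
KO minus WT difference (log2, y axis) of each measured member in marrow (top) and spleen (bottom), grouped by role, with interferon-induced subunits in red and dashed lines at 2-fold. Marrow points lie near 0 apart from Psma8 and Psmb11, and 25 of 48 spleen points lie above the upper dashed line.

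The alpha ring had the highest median among the role groups of more than 2 genes, at 1.30. Of its 7 subunits 6 were at least 2-fold higher, beside 19.8% of all measured genes and 35.3% of the brightest bin. Psma5 had signals of 34067 on spleen KO and 12066 on spleen WT, with 47088 and 37299 on marrow KO and WT. Psma7 had 72011 and 27020 in the spleen, with 50516 and 36599 in the marrow. Their spleen differences were 2.40 and 2.31, and their marrow differences 0.27 and 0.40. Psma1 had 25779 on spleen KO and 19516 on spleen WT (1.30), with 36962 and 31860 in the marrow. Psma2 had 54006 and 37273 (1.44), with 61343 and 54328 in the marrow. Psma6 had 14696 and 11129 (1.30), with 26541 and 21552 in the marrow. Before scaling, these 3 were brighter on spleen KO by less than 2-fold. Psma4 had 7741 and 7090 (1.03), with 8496 and 8775 in the marrow, where KO was the lower. Psma3 was the exception in the ring at 0.16.

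Among the constitutive beta subunits, 4 of 7 were at least 2-fold higher, beside 19.8% of all measured genes and 35.3% of the brightest bin. Psmb6, which carries the caspase-like site, was the highest at 2.06 and Psmb5, which carries the chymotrypsin-like site, stood at 1.41. Psmb3 had 30104 on spleen KO and 26299 on spleen WT (2.14-fold after scaling), with 36527 and 32128 in the marrow. Psmb1 had 17267 and 15447 (1.06), with 20971 and 19386 in the marrow. Psmb2 at 0.99, Psmb4 at 0.80 and Psmb7, with the trypsin-like site, at 0.55 stayed under 2-fold.

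The 5 interferon-induced subunits were at 0.67 for Psmb8, 0.83 for Psmb10, 0.97 for Psme1, 1.01 for Psme2 and 1.29 for Psmb9, close to the median of 1.05 for the other members. With quantile normalization they ranged from -0.05 to 0.50 and with cyclic loess from -0.36 to 0.35, where 4 of 5 and 1 of 5 lay above 0. Within the pairs, KO minus WT in the spleen was -0.77 for Psmb9 over Psmb6 (-0.79 to -0.75 over all settings) and -0.73 for Psmb8 over Psmb5 (-1.05 to -0.69). The pair of Psmb10 and Psmb7 gave 0.28, which ran from -0.23 to 0.32 and so has no settled sign. In the marrow the 3 pairs gave -0.04, -0.01 and 0.24.

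**Figure D4:**
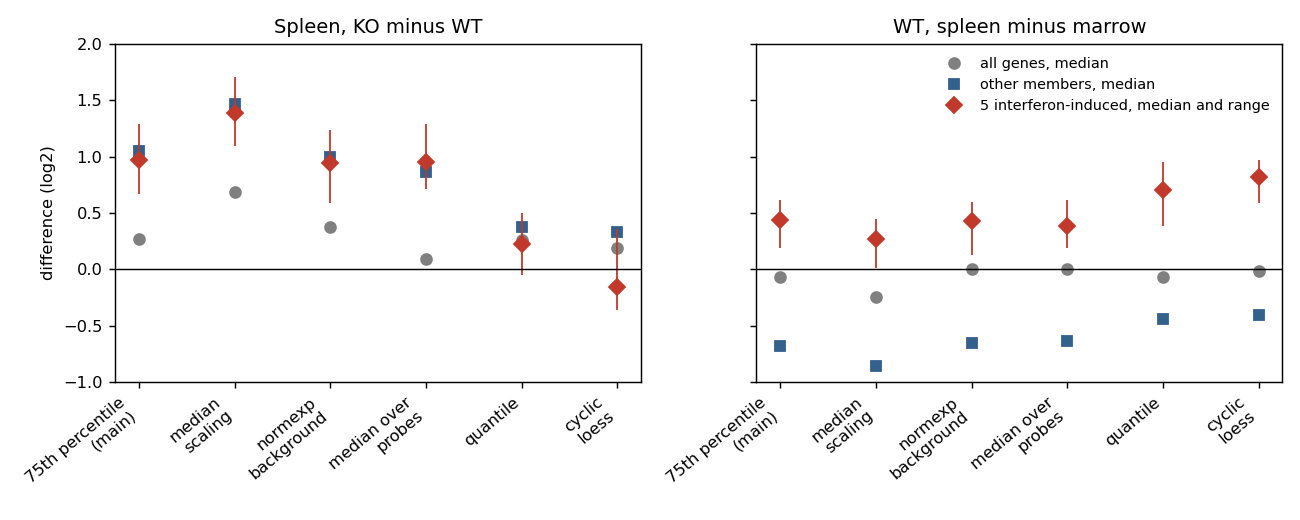
Median difference (log2, y axis) under 6 settings for all genes, the members that are not interferon-induced and the 5 interferon-induced subunits (line: their range), for spleen KO minus WT (left) and WT spleen minus marrow (right). On the left the members approach the median of all genes with quantile normalization and cyclic loess, and on the right the 5 stay above 0 and the other members below under each setting shown.

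In the 19S cap, 2 of 6 ATPases and 4 of 11 other subunits were at least 2-fold higher on spleen KO. These shares, 33.3% and 36.4%, were near the 35.3% of genes in the brightest bin, beside 19.8% of all measured genes. Psmc6 had 40210 on spleen KO and 14979 on spleen WT, with 36478 and 32505 in the marrow, a spleen difference of 2.32. Psmc2 had 11365 and 10268 (1.05), with 20421 and 18004 in the marrow, but its other probe, from a cDNA clone, gave -1.31 and the median over both -0.13. The other 4 ATPases were between 0.22 and 0.83. Psmd6, a lid subunit, had 11288 and 6787 (1.63), with 14786 and 12833 in the marrow. Psmd14, the deubiquitinase that strips ubiquitin from substrates, had 14734 and 10190 (1.43), with 22858 and 21449 in the marrow. Both differences were below 2-fold before scaling. Psmd12 had 14905 and 11534 (1.27), with 20976 and 18344 in the marrow. Psmd7 had 4424 and 3493 (1.24), with 8212 and 7625 in the marrow. Of these, Psmc6 and Psmd6 showed the larger steps in the unscaled signal.

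Among the factors that build proteasomes, Psmg4, a 20S assembly chaperone, had 8225 on spleen KO and 3626 on spleen WT, with 6623 and 5339 in the marrow (2.08 in the spleen). Psmg3 had 3132 and 2248 (1.38), with 4404 and 4099 in the marrow. Psmd10, the 19S chaperone also known as gankyrin, had 3748 and 1908 (1.87), with 3650 and 3021 in the marrow. Psmd5 had 3805 and 3005 (1.24), with 4452 and 4705 in the marrow. Both chaperone groups thus had some members above 2-fold, and Psmg1 (0.98), Psmg2 (0.42) and Psmd9 (0.19) below it. Psma8 differed by 2.20 in the spleen at low signal. Psmc3ip, the name match that is no subunit, had 973 and 772 (1.23), with 4987 on marrow KO.

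Psme4 had signals of 13125 on spleen KO and 9441 on spleen WT (1.38), with 41229 and 42602 in the marrow, and this value depended on the probe. On its transcript the probe at base 6248, used here, gave 1.38, the probe at base 5593 gave 0.48 and the probe at base 2608 gave -3.67, with signals of 19.2 on spleen KO and 458 on spleen WT for the last. In the marrow the 3 probes gave -0.12, -0.36 and -0.18. Psmf1 showed an order of the same kind in the spleen, with -1.86 at base 519, 0.15 at base 2460 and 0.62 at base 3284, and so did Psmd12, with -0.53 at base 287 and 1.32 at base 1503. Over the 15 member transcripts with several probes well above background on all arrays, the most 3′ and the most 5′ probe lay over 2-fold apart in 3 transcripts in the spleen (these 3) and in 0 in the marrow. The median 3′ minus 5′ value was 0.12 in the spleen and 0.07 in the marrow. In KO spleen against KO marrow the median was 0.27, the 3′ probe was the higher in 12 of 15 transcripts, and 2 were over 2-fold apart, while in WT the median was 0.03, with 8 of 15 and 1. The distance between those probes had a median of 427 bases over the 15 transcripts.

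**Figure D5:**
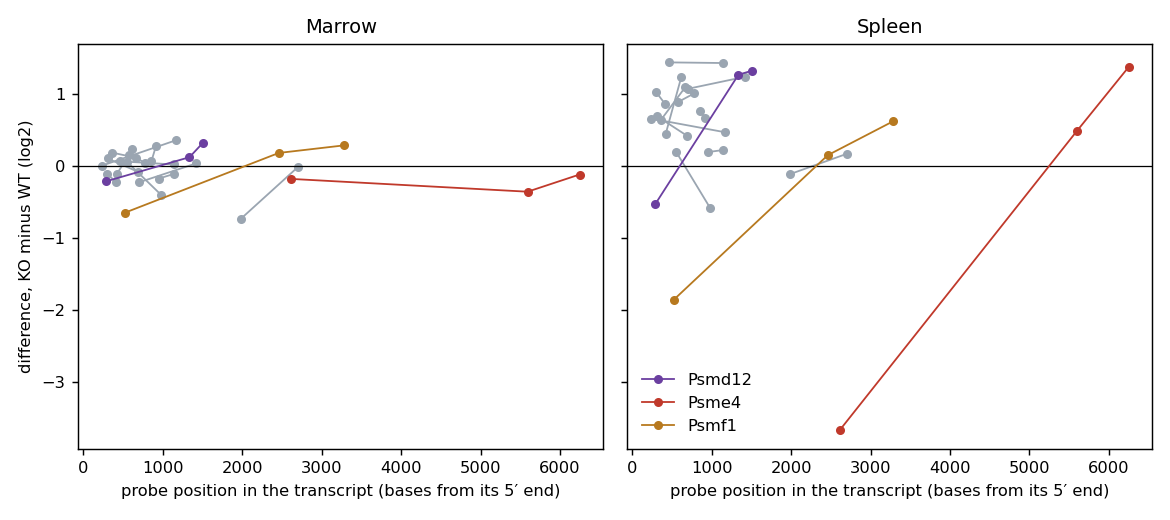
KO minus WT difference (log2, y axis) of every probe of the members with several probes on 1 RefSeq transcript, against the probe's position in the transcript (bases, x axis), in marrow (left) and spleen (right), with lines joining probes of a transcript. In the spleen the 5′ probes of Psme4, Psmf1 and Psmd12 lie far below their 3′ probes.

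The fit over both tissues took marrow and spleen as repeats of 1 genotype effect, and since the labels do not say whether both came from the same animals, its p-values measure only the spread between these arrays. By limma with genotype and tissue as terms (1 residual degree of freedom) and Benjamini-Hochberg adjustment over 22059 genes, 0 of 49 members passed the threshold of 0.05, beside 0.0363% of all genes called higher and 0.00907% called lower on KO (8 and 2 genes). At an unadjusted p under 0.05 there was 1 member against 2495 of the 22059 genes. The lowest was Psma8, with a log2 difference of 1.83 ± 0.55 (SE) and a limma adjusted p of 0.263. Psma7 (1.35 ± 0.61) and Psma5 (1.33 ± 0.63) had the next largest effects. The 49 effects had a median of 0.58, and 46 were positive. Both depended on the scaling: 37 were positive with quantile normalization (median 0.18) and 32 with cyclic loess (median 0.15). Of all measured genes, 44.3% lay above 0 on KO against WT in the marrow and 53.2% in the spleen. When limma was run on genes well above background on all 4 arrays, Psma8 alone of 48 members was called, with a limma adjusted p of 0.0317. In that run 449 of all 16517 genes were called.

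The proteasome's partners outside the name rule were read from a list of 19 genes. On spleen KO 10 of them passed 2-fold upwards and 1 downwards, with a median of 1.06, where 19.8% of all measured genes did so upwards and 14.4% downwards. None did in the marrow, where the median was 0.14, beside 8.35% of all measured genes upwards and 4.9% downwards. On WT spleen against WT marrow 1 passed it upwards and 4 downwards, beside 15.5% and 15.7% of all measured genes. Sem1, the smallest 19S subunit, had signals of 104625 on spleen KO and 38917 on spleen WT, with 134464 and 87492 in the marrow, a spleen difference of 2.33. Ddi2, a protease that cuts Nfe2l1 into its active form, was the lowest at -1.48. Pomp, the core's maturation factor, stood at 0.96, and Nfe2l1, a transcription factor known for raising proteasome genes, at 1.06. Of 10 genes of ubiquitin and its activation, 2 passed 2-fold upwards and 3 downwards on spleen KO, to be read beside the same shares of all genes. Uba1, the main ubiquitin-activating enzyme, had signals of 4400 on WT marrow, 1999 on KO marrow, 5449 on WT spleen and 417 on KO spleen. It was thus the lower on both KO arrays, at -1.21 in the marrow and -2.81 in the spleen.

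The steps after the proteasome were read from 12 genes of MHC class I presentation. On WT spleen against WT marrow 9 of 12 were above 0, beside 44.7% of all measured genes, with a median of 0.60. At 2-fold 0 were higher and 1 lower, beside 15.5% and 15.7% of all measured genes. Tap1 and Tap2, which together form the pump that carries peptides into the endoplasmic reticulum, were at 0.94 and 0.58, B2m, the class I light chain, at 0.99, and H2-K1, a class I heavy chain, at 0.61. The 3 below 0 were Lnpep (-1.24), which had the largest difference in the list, Canx (-0.90) and Erap1 (-0.51). On spleen KO against WT the list had 1 gene higher and 2 lower by 2-fold, beside 19.8% and 14.4% of all measured genes. The 2 were Tap1, with signals of 812 on KO and 4404 on WT (-1.54), and Tap2 (-1.13), while the higher one was Erap1, a peptide-trimming enzyme (1.62). Of 12 interferon signalling factors, 9 were above 0 on WT spleen against WT marrow, among them Stat2 (1.51), Irf1 (0.34) and Irf9 (1.21), beside 44.7% of all measured genes. The 3 below 0 were Socs1, an inhibitor of this signalling (-2.83), and the receptor chains Ifngr1 (signals of 20586 on WT marrow and 10398 on WT spleen) and Ifnar1 (-0.98). On spleen KO against WT 8 of the 12 were above 0, beside 53.2% of all measured genes. At 2-fold 3 were higher, Ifngr1 (1.97), Jak2 (1.45) and Ifnar1 (1.26), and 1 lower, Stat2 (-1.41), beside 19.8% and 14.4%. Irf1 was at 0.91.

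Psmb9 and Tap1 are neighbours read in opposite directions, and their values set beside each other are the reason to show the DNA between them. Both were higher on WT spleen than on WT marrow, by 0.62 and 0.94, but KO minus WT was 0.29 for Psmb9 and -1.10 for Tap1 in the marrow, and 1.29 and -1.54 in the spleen. The 225 bases between both starts (RefSeq, GRCm38.p6) are given on the minus strand, in the direction of Psmb9, with capitals for 1 GC box, GGGCGG, and for 1 CCAAT box, which reads ATTGG on this strand.
Psmb9 to Tap1, chr17:34187331-34187555, minus strand: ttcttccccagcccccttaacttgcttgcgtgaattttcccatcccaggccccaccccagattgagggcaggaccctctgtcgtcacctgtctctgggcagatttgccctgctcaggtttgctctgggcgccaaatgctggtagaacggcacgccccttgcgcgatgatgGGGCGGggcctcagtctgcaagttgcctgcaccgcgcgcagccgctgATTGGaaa
The 250 bases before the start of Psmb8, which lies in the same cluster, hold 1 match to the gamma-activated site TTCNNNGAA, in capitals.
Psmb8, chr17:34197945-34198194, plus strand: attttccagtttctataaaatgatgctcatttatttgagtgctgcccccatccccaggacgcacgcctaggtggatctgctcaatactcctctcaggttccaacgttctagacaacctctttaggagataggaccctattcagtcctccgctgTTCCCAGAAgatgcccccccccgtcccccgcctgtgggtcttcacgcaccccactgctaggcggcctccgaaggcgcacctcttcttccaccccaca
These matches describe the letters and are not shown to be bound sites.

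A start site was found for 41 of the 49 members, all 5 interferon-induced subunits included, in the RefSeq table of GRCm38.p6. The 250 bases before each start were searched on both strands, any window of a gene counting, beside 27025 genes. The ETS site CCGGAA was present in 18 of 41 members (43.9%) against 13.6% of genes, and in 0 of the 5 interferon-induced subunits. The 18 were Psma5, Psma6, Psmc1, Psmc2, Psmc3ip, Psmc5, Psmc6, Psmd2, Psmd4, Psmd6, Psmd10, Psmd11, Psmd12, Psmd13, Psme3, Psme4, Psmf1 and Psmg1. On spleen KO against WT they ran from -0.36 for Psmd13 to 2.40 for Psma5, and a link between site and difference was not tested. The GC box GGGCGG was present in 22 members (53.7%) against 35.4% of genes, and CCAAT in 15 (36.6%) against 37.5%. The antioxidant response core TGACNNNGC was present in 5 members (12.2%) against 11.5%, namely Psmb5, Psmb6, Psmc6, Psmd9 and Psmd12. The interferon-stimulated element GAAANNGAAA was present in 3 members (7.32%) against 3.46%, in 0 of the 5 interferon-induced subunits, and the gamma-activated site TTCNNNGAA in 2 members (4.88%), Psmb8 and Psmg1, against 8.13%.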

How the data were processed

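Each of the 4 samples has 1 deposited scanner file, which holds intensity values on a linear scale that the authors made with Agilent Feature Extraction 10.5.1.1, background-corrected and not normalized between arrays, with probes placed on mm9, per the file headers. Control spots and outlier spots were left out, and 0 gene spots were saturated. Levels are log2 of the processed signal minus that of the array's 75th percentile, averaged over the spots of each probe. The median SD of repeated spots was 0.068 to 0.081, which covers spotting error only. Where a probe was well above background on 1 of 2 arrays the difference is a lower bound. A gene was called at 2-fold, with no test for 1 array per group. limma 3.58.1 (R 4.3.3) fitted genotype and tissue over 22059 genes. Tested on simulated data of 22059 genes, it called all 100 genes changed by 2 and all 100 changed by 4 on the log2 scale, and 11 unchanged ones. The simulated noise was the same for every gene and smaller than the spread estimated from these arrays. The simulation thus does not show what the fit can find in these data. Alternatives were quantile normalization, cyclic loess, median scaling, normexp background correction (offset 50), other probe choices, filters and a 1.5-fold call. All members may be named; values on all arrays are given for the interferon-induced subunits, their partners, members 2-fold apart in a tissue and the 3 largest limma effects, and of other lists up to 4 of the largest size were to be named per list, with others chosen for their role after values were seen. Members and lists were chosen with earlier results of these data known. Sequences are from the array file (probes) and RefSeq, GRCm38.p6 (promoters). Some genes of the other lists are not reported here and are left out of their counts.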

Additional observations from a re-analysis of the deposited data

Results flagged for a closer look

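For 3 members the KO minus WT difference was at least 2-fold in the spleen and had the opposite sign in the marrow, and the difference between the tissues was not tested. Psma4 was at -0.12 in the marrow and 1.03 in the spleen, Psmd5 at -0.15 and 1.24, and Psme4 at -0.12 and 1.38. The Psme4 value in the spleen turns with the probe.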

How the results depend on the processing

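In the spleen KO minus WT comparison the median of the members was 0.34 with quantile normalization and 0.25 with cyclic loess, and 8 and 7 members were at least 2-fold higher. In the same comparison 2 members were at least 2-fold lower when probes of a gene were combined by their median and 1 with the probe chosen without the spleen KO array. In the WT tissue comparison 4 members were at least 2-fold lower with quantile normalization, 4 with cyclic loess and 26 at 1.5-fold, and 1 was higher with the median over probes and 1 at 1.5-fold. In the KO tissue comparison 1 member was higher with quantile normalization, 1 with cyclic loess, 11 with median scaling and 16 at 1.5-fold, and 1 was lower with median scaling, 4 with the median over probes, 5 at 1.5-fold and 1 without Psmc3ip. In the marrow 0 members were higher with normexp, 1 with the median over probes and 1 with genes well above background on all 4 arrays, where limma called 1 member. Among members at least 2-fold apart, the sign turned in the spleen for Psme2 (-0.15, cyclic loess), Psmc2 (-0.13, median over probes) and Psme4 (-1.60, median over probes). Under 2-fold it also turned, among others, for Psmb8 (-0.36), Psmb10 (-0.26), Psme1 (-0.03) and Psmb7 (-0.03), all with cyclic loess. The 1.5-fold counts follow from the looser call, and for the others the cause was not tested.

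Of the summary values, 186 were counted as the same and 23 as moved, by the size of the change and not by its sign. The members' median in KO spleen against KO marrow, 0.22 with percentile scaling, was thus counted as the same where its sign turned. It was -0.01 with quantile normalization and -0.11 with cyclic loess. Of the single-gene values, 865 were the same by the 2-fold call, 65 weaker, 16 stronger and 3 reversed. A sign that turned under 2-fold was counted as the same. limma called 443 of all genes with median scaling, 630 with normexp, 593 with no filter and 449 with genes well above background on all arrays, 2 with quantile normalization, 0 with cyclic loess and 0 without the tissue term, against 10. Median scaling moved the median of all genes in the spleen from 0.27 to 0.69. With 1 array per group no replicate could be left out. No paired analysis was possible because each group has 1 array and the labels carry no replicate numbers to pair by, other than the limma fit itself, whose tissue term compares KO with WT within each tissue and slide. Signal over background limits Psma8 and Psmb11.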
